A study of Homo sapiens with 8 samples.

Results

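The genes described here are 36 genes of cholesterol and fatty acid synthesis, taken as a list of pathway genes with every probe of each, out of 18741 genes that could be given a named probe. They comprise a sterol branch of 23 genes (17 enzymes, 5 regulators and the sterol carrier gene STARD4) and a fatty acid branch of 13 genes. Every member had at least 1 named probe, 56 in all, and 35 of the 36 passed the filter on dim probes. SREBF2 did not. Total RNA had been labelled with biotin and hybridised to Illumina BeadChips, which report a fluorescence intensity for each probe. The 4 shZNF395 arrays held RNA of cells carrying a lentiviral hairpin against ZNF395, a zinc finger transcription factor gene, and the 4 shControl arrays held RNA of cells carrying a control hairpin, which the design text calls mock-transfected. All 8 samples were MDA-LM2-shTARBP2 cells, where MDA-LM2 is a subline of MDA-MB-231 (human breast cancer) selected for metastasis to lung, so the controls too carried the hairpin against TARBP2, a partner of the microRNA-processing enzyme Dicer. Cells of both groups were selected for the hairpin, and RNA was taken 48 h after what the labels call transfection. The labels name no clone, number of hairpins or separate cultures. The p-values therefore set each difference against the spread among these samples only, and that spread may be technical.

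Cholesterol is built from acetyl-CoA through mevalonate, isoprenoids and squalene to lanosterol, whose ring and side chain are then trimmed to cholesterol. Fatty acids are built from the same acetyl-CoA through malonyl-CoA, and are then desaturated, elongated and activated to acyl-CoA. Both routes are controlled by the SREBP transcription factors. SREBP precursors are carried by SCAP out of the endoplasmic reticulum when sterols are scarce, and are held there by INSIG proteins when sterols are plentiful. Breast cancer cells commonly make much of their own lipid, with fatty acid synthase as the best known marker of that activity.

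The targeted gene was lower, as labelled. ZNF395 stood at 9.06, 8.99, 9.22 and 9.06 on the shZNF395 arrays and at 9.89, 9.81, 9.80 and 10.05 on the shControl arrays (log2 intensity, as for all levels below). The difference was -0.80 (SE 0.077, limma adjusted p = 1.01e-05). TARBP2, the target of the shared hairpin, differed by 0.21 on its brighter probe (adjusted p = 0.0193) and by 0.07 on the other (adjusted p = 0.589). Between 16476 and 17406 of the 47323 probes were detected per array. The line's markers VIM, CD44, AXL and CAV1 were detected on all 8 arrays. By the brightest probe AXL (-0.25, adjusted p = 0.00439) and CAV1 (-0.27, adjusted p = 0.00689) were lower in shZNF395, while VIM and CD44 did not pass, although another CD44 probe was lower (-0.28, adjusted p = 0.00983). ESR1 and CDH1, which it lacks, were detected on none. None of 4 leukocyte markers was detected on any array, and of 2 endothelial and 4 adipocyte markers LEP was detected on all 8 arrays (-0.26, not passed), CIDEC on 1 and CDH5, ADIPOQ and PLIN1 on none. PECAM1, of endothelium, was detected on 4 shZNF395 and 2 shControl arrays and was higher in shZNF395 (0.36, limma adjusted p = 0.0377). The shZNF395 arrays alone could carry PECAM1 past the filter, and its shControl values of 5.13 to 5.81 lay near the detection limit. CDH2, listed for packaging cells, was detected on the 4 shZNF395 arrays alone, through which it passed the filter, and was at least 1.2-fold higher there. The part of these markers in the results was not tested. Array 3 of each group lay nearest to the other group over all detected probes, with a mean correlation to the other group of 0.9742 for shZNF395 3 and 0.9734 for shControl 3, against at most 0.9724 for the other arrays. The members' calls that these arrays change are given with and without them.

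The promoter windows of RefSeq (GRCh38.p14, 250 bases before to 50 bases after a start, 1 or more per gene) were read for 32 of the 36 members. They are shown for the members with the largest rise or fall in each branch that had a window, with 150 bases before the first listed start, 5′ to 3′ on the strand of the gene. Capitals mark the NF-Y box CCAAT on either strand, which on the opposite strand reads ATTGG. NF-Y is a factor that is known to act beside SREBP at sterol-regulated promoters.
SC5D, higher in shZNF395, chr11:121292621-121292770, plus strand: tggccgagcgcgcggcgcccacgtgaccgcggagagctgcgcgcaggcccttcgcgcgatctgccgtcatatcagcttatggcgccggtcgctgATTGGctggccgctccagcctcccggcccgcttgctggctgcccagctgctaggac
HMGCS1, higher, chr5:43313413-43313562, minus strand: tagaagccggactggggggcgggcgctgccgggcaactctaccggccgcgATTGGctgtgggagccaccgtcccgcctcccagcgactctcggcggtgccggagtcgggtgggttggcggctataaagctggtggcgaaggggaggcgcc
SCAP, lower, chr3:47475942-47476091, minus strand: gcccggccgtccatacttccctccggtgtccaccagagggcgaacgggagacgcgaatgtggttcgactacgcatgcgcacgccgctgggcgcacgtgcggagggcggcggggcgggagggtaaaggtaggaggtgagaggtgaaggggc
ACSS2, higher, chr20:34874839-34874988, plus strand: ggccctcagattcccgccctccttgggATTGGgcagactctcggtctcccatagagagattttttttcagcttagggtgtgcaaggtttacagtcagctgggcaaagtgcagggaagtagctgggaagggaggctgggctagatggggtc
SCD, lower, chr10:100347083-100347232, plus strand: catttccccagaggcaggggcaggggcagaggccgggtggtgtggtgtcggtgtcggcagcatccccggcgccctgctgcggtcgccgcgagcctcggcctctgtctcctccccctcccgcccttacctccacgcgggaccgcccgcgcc

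An NF-Y box stood near the start of SC5D, HMGCS1 and ACSS2, whereas the windows of SCAP held none. The boxes of SCD lay further out than the bases shown, at -229 and -186 from the start. The box was present in 16 of the 20 sterol genes with a window and in 9 of 12 fatty acid genes, against 39.7% of all 27305 genes of the table. The sterol and fatty acid genes have several windows in some cases, and counted by window the shares were 69.2% and 52.4%, against 34.6% of all windows. Of the named genes tested 44.2% held it. It was found in 11 of 13 members that were higher in shZNF395 (84.6%) and in 6 of 7 that were lower (85.7%). Among members that did not pass or were not tested it was found in 8 of 12 (66.7%). These shares were not tested against each other. A sterol regulatory element, searched as TCACNCCAC on both strands, was found in 1.39% of all genes and in 2 members, SREBF2 and ACSL1. They are printed with both motifs in capitals. SREBF2 was too dim to be tested for expression, and ACSL1 did not pass. The search says only which letters stand in these windows.
SREBF2, chr22:41832952-41833020, plus strand: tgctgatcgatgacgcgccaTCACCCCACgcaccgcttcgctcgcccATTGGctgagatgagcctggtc
ACSL1, at an inner start, chr4:184805747-184805803, minus strand: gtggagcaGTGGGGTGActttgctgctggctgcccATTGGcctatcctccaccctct

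Within the sterol branch more genes were higher than lower in shZNF395. Read by its brightest detected probe, the branch held 10 genes that were higher, 5 that were lower and 7 that did not pass the test, of 22 tested. The test was limma's moderated test over all 17184 detected probes, with a Benjamini-Hochberg adjusted p under 0.05. By the same rule 58% of the 10066 named genes tested were called, 29.8% higher and 28.2% lower, so that being called sets no member apart. Over single probes those shares were 55.4%, 25.3% and 30%. In a bulk sample a lower level can come from fewer cells that express a gene or from less RNA per cell, and these cannot be told apart. The median difference of the branch was 0.15 on the log2 scale, against -0.01 over all named genes. On 14 of the 22 genes the 2 groups of arrays did not overlap, against 52.7% of all named genes.

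SC5D rose furthest. It encodes the desaturase that makes the C5 double bond near the end of cholesterol synthesis. Its probe read 9.41, 9.35, 9.19 and 9.33 on the shZNF395 arrays and 7.94, 8.02, 8.15 and 8.21 on the shControl arrays. The lowest shZNF395 array lay well above the highest shControl array. The difference was 1.24 (SE 0.079, 95% interval 1.07 to 1.42, limma adjusted p = 4.83e-07), which is 2.36-fold, and SC5D was the 1 called member that differed by at least 1 on the log2 scale. Its fold change in the authors' deposited table was 1.00, on a log scale that runs flatter than log2 for dim probes. That value was the one used to pair the probe with SC5D, so it is no separate check.

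At the entry of the pathway, HMGCS1 encodes the synthase that joins acetyl-CoA and acetoacetyl-CoA. It read 8.73, 8.88, 8.65 and 8.82 on the shZNF395 arrays and 7.99, 8.05, 8.15 and 8.01 on the shControl arrays. The groups did not overlap, and the difference of 0.72 (SE 0.071, limma adjusted p = 1.17e-05) is 1.65-fold. ACAT2, the cytosolic thiolase that supplies acetoacetyl-CoA to it, ran the other way. It ranged from 10.63 to 10.87 in shZNF395 and from 10.90 to 11.05 in shControl, a difference of -0.21 (SE 0.069, limma adjusted p = 0.0222). Its second probe gave -0.39 (adjusted p = 0.00282), but both were named together by the mean of their differences, so this is no separate check. The ACAT2 call on the brighter probe was lost without shControl 1, shControl 3 or shZNF395 4, with adjusted p from 0.0522 to 0.064.

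The mevalonate kinases MVK and PMVK did not pass, with differences of 0.05 (95% interval -0.16 to 0.27) and -0.08 (-0.24 to 0.08). MVD, the decarboxylase that follows them, rose. It read 6.76, 6.72, 6.99 and 6.97 in shZNF395 and 6.18, 6.07, 6.23 and 6.25 in shControl. All 4 shZNF395 arrays were higher, by 0.68 on average (SE 0.08, limma adjusted p = 4.35e-05). The isomerase IDI1 was higher by 0.26 (SE 0.068, adjusted p = 0.00819), at 9.49 to 9.60 in shZNF395 and 9.18 to 9.42 in shControl. FDPS, which makes farnesyl diphosphate, was lower by a similar small amount, with a difference of -0.21 (SE 0.067, adjusted p = 0.0215), at 9.46 to 9.58 in shZNF395 and 9.62 to 9.80 in shControl. The FDPS call was lost without shControl 1, shControl 3 or shZNF395 4 (adjusted p from 0.053 to 0.0648) and without both arrays numbered 3 (0.0792).

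FDFT1 encodes squalene synthase, the first enzyme committed to sterols. Its brightest probe read 11.30, 11.36, 11.13 and 11.14 in shZNF395 and 10.50, 10.72, 10.82 and 10.67 in shControl, and the groups did not overlap. The difference was 0.56 (SE 0.085, limma adjusted p = 0.000251), and a second probe gave 0.53 (SE 0.056, adjusted p = 1.88e-05). Both probes were named together by the mean of their differences, so the second is no separate check. SQLE, the squalene epoxidase, did not follow FDFT1. Its brightest probe gave -0.14 and did not pass (adjusted p = 0.09), although its arrays did not overlap either, and its dimmer probe gave -0.30 (adjusted p = 0.0128). LSS, which closes the rings to lanosterol, read 9.06, 9.17, 9.23 and 9.12 in shZNF395 and 8.71, 8.51, 8.67 and 8.65 in shControl. It was higher on every shZNF395 array than on any shControl array, by 0.51 on average (SE 0.068, adjusted p = 9.88e-05). Its other 2 probes were below detection on all 8 arrays.

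**Figure D1:**
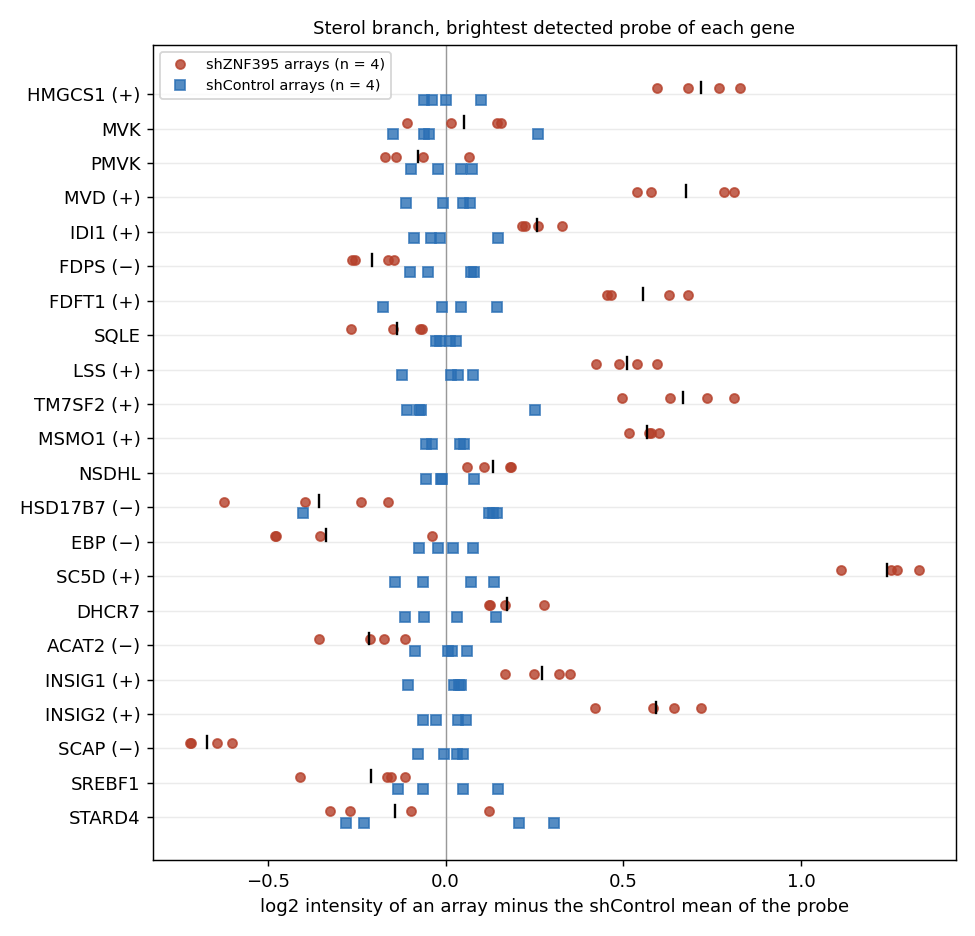
Log2 intensity on each array minus the shControl mean of the same probe, for the 22 tested genes of the sterol branch: circles are the 4 shZNF395 arrays with their mean as a black bar, squares the 4 shControl arrays, and a plus or minus marks genes called higher or lower. SC5D stands furthest to the right (mean difference 1.24) and SCAP furthest to the left (-0.67).

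After lanosterol the enzymes split. TM7SF2, a sterol C14 reductase, read 6.77, 6.84, 6.53 and 6.66 in shZNF395 and 5.96, 5.96, 6.28 and 5.92 in shControl. The array shControl 3 stood above the other controls, still below all shZNF395 arrays, and the difference was 0.67 (SE 0.097, limma adjusted p = 0.000181). MSMO1, the C4 methyl oxidase, read 10.59, 10.58, 10.53 and 10.61 in shZNF395 and 10.06, 10.05, 9.96 and 9.97 in shControl, a clear separation with a difference of 0.57 (SE 0.058, adjusted p = 1.62e-05). A second MSMO1 probe gave 0.49 (adjusted p = 0.000403) and another, dim one gave -0.03 (adjusted p = 0.744).

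NSDHL and HSD17B7 act with MSMO1 in removing the C4 methyl groups. NSDHL differed by 0.13 and did not pass (95% interval -0.003 to 0.27, limma adjusted p = 0.0889). HSD17B7 ranged from 9.84 to 10.30 in shZNF395 and from 10.06 to 10.60 in shControl, where shControl 3 stood at 10.06 and the other 3 at 10.58 to 10.60. Its difference was -0.35 (SE 0.136, adjusted p = 0.0462), a call at the edge of the threshold. Leaving out shControl 3 moved it to -0.49 (adjusted p = 0.00278), while the call was lost without any 1 of the other shControl arrays or of shZNF395 1, 2 or 3 (adjusted p from 0.0547 to 0.127). EBP, the sterol isomerase, was lower by a similar amount, with a difference of -0.34 (SE 0.097, adjusted p = 0.0126), at 9.41 to 9.85 in shZNF395 and 9.81 to 9.96 in shControl. Here shZNF395 3 overlapped the controls. DHCR7, the last reductase of the Kandutsch-Russell route, gave 0.17 on its brighter probe (95% interval 0.01 to 0.33, adjusted p = 0.0643) and -0.05 on the other. Without both arrays numbered 3 the brighter probe passed, at 0.19 (adjusted p = 0.0377), as it did without shControl 3 alone, at 0.22 (adjusted p = 0.0239). MVK passed without both, at 0.19 (adjusted p = 0.0415).

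Among the regulators, SCAP fell and both INSIG genes rose. SCAP, the escort of SREBP, read 9.91, 9.95, 9.84 and 9.83 in shZNF395 and 10.55, 10.60, 10.59 and 10.48 in shControl. Every shZNF395 array lay below every shControl array, and the difference of -0.67 (SE 0.061, 95% interval -0.81 to -0.54, limma adjusted p = 6.54e-06) was the largest fall in either branch. INSIG2 read 9.11, 8.97, 8.81 and 9.03 in shZNF395 and 8.43, 8.36, 8.33 and 8.45 in shControl. The groups did not overlap, and INSIG2 rose by 0.59 (SE 0.074, adjusted p = 6.46e-05). INSIG1 read 10.48, 10.51, 10.41 and 10.33 in shZNF395 and 10.21, 10.06, 10.20 and 10.19 in shControl, an increase of 0.27 (SE 0.067, adjusted p = 0.00531) that its dim second probe gave as 0.13 without passing (adjusted p = 0.271). SCAP and SC5D were the 2 members outside the range from the 5th to the 95th percentile of all named genes, -0.62 to 0.92.

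Of the SREBP genes themselves, 1 was tested. It did not pass on its brightest probe, while another of its probes, near the detection limit, was called lower. SREBF1, which encodes the SREBP-1 precursor, gave -0.21 on its brightest probe (95% interval -0.40 to -0.02, limma adjusted p = 0.0601), and -0.13 without both arrays numbered 3. That brightest probe was named through the mean of 2 probes, where 0.37 such pairs arose by chance, the most of any member. The other tested SREBF1 probe matched an entry of its own and was detected on 1 shZNF395 array and all 4 shControl arrays. It gave -0.37 (limma adjusted p = 0.00892), but it passed the filter through the shControl arrays, where it was high. On the shZNF395 arrays it read 4.87 to 5.32, near the detection limit, so that its call is no separate support. The remaining SREBF1 probe was below detection on all arrays. The mean of the tested SREBF1 probes gave -0.29 (limma adjusted p = 0.00441), but it includes that dim probe and carries the same limit. SREBF2, the gene of the SREBP-2 precursor, had a single named probe that was detected on 1 array of each group. It read 5.54, 5.09, 5.09 and 4.63 in shZNF395 and 5.32, 4.71, 5.02 and 4.87 in shControl, overlapping throughout, and was not tested. STARD4, a soluble sterol carrier, was near the detection limit, at 5.17 to 5.62 in shZNF395 and 5.21 to 5.80 in shControl, and did not pass (-0.14, adjusted p = 0.423).

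The fatty acid branch was evenly divided. All 13 genes were tested, of which 4 rose, 4 fell and 5 did not reach the threshold. The median difference was -0.08. Of all named genes 29.8% were called higher and 28.2% lower. The arrays of the groups did not overlap for 9 of the 13, against 52.7% of all named genes. Without both arrays numbered 3 the median was -0.02. The genes that were lower included FASN, ACACA and SCD, the enzymes that build and first desaturate the chain. Those that were higher were ACSS2 and ACLY, which supply acetyl-CoA, and the elongases ELOVL1 and ELOVL6.

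Of the enzymes of acetyl-CoA supply, ACSS2 makes acetyl-CoA from acetate. Its brightest probe read 10.32, 10.45, 10.01 and 10.22 in shZNF395 and 9.55, 9.67, 9.82 and 9.53 in shControl. The groups came closest at array 3 of each, without overlap, and the difference was 0.60 (SE 0.102, limma adjusted p = 0.000506). A second probe, matched to another ACSS2 transcript, gave 0.74 (SE 0.087, adjusted p = 4.03e-05). ACLY, which makes acetyl-CoA from citrate and feeds both branches, read 11.23, 11.34, 11.22 and 11.34 in shZNF395 and 11.10, 11.08, 11.03 and 11.04 in shControl. This small rise of 0.22 passed (SE 0.06, adjusted p = 0.00923), and its other probe gave 0.19 without passing (adjusted p = 0.112).

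FASN, the fatty acid synthase, read 11.13, 11.11, 11.27 and 11.17 in shZNF395 and 11.34, 11.58, 11.82 and 11.66 in shControl. All shZNF395 arrays were lower, by 0.43 on average on the log2 scale, although the controls spread over a wider range (difference -0.43, SE 0.096, limma adjusted p = 0.00283). ACACA, the carboxylase that makes malonyl-CoA for FASN, read 9.21, 9.31, 9.12 and 9.22 in shZNF395 and 9.40, 9.42, 9.45 and 9.47 in shControl. It fell by 0.22 (SE 0.061, adjusted p = 0.0103), and its second tested probe, of another transcript, fell by 0.32 (adjusted p = 0.0047). SCD, the stearoyl-CoA desaturase, read 10.24, 10.19, 10.19 and 10.28 in shZNF395 and 10.55, 10.49, 10.54 and 10.63 in shControl. The spread within each group was small beside the difference of -0.33 (SE 0.06, adjusted p = 0.000784).

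The desaturases FADS1 and FADS2, which act on polyunsaturated fatty acids, did not pass. FADS1 differed by -0.16 (95% interval -0.37 to 0.05), with shZNF395 3 at 9.89 and the other shZNF395 arrays at 10.18 to 10.24. Without shZNF395 3 the FADS1 difference was -0.08, and without both arrays numbered 3 it was -0.02 (limma adjusted p = 0.796). FADS2 was detected on 2 arrays of each group and differed by -0.08 (-0.28 to 0.11).

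The 3 elongases all passed, in both directions. ELOVL6, which lengthens the products of FASN, read 10.70, 10.69, 10.55 and 10.62 in shZNF395 and 10.04, 10.08, 10.23 and 10.08 in shControl. It rose by 0.54 (SE 0.067, limma adjusted p = 6.28e-05), and its second probe rose by 0.40 (adjusted p = 0.00111). Both ELOVL6 probes were named together by the mean of their differences, so the second is no separate check. ELOVL1, an elongase of very long saturated chains, read 9.28, 9.57, 9.43 and 9.38 in shZNF395 and 8.96, 8.97, 9.05 and 8.88 in shControl, without overlap, and rose by 0.45 (SE 0.074, adjusted p = 0.000435). ELOVL5, which acts on polyunsaturated chains, read 10.89, 11.04, 10.95 and 10.82 in shZNF395 and 11.16, 11.05, 11.11 and 11.26 in shControl. The highest shZNF395 array and the lowest shControl array were almost level, and the difference was -0.22 (SE 0.072, adjusted p = 0.0251). Leaving out array 1 or array 4 of either group ended that call (adjusted p from 0.056 to 0.0765).

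The long-chain acyl-CoA synthetases, which activate fatty acids for use, did not pass. ACSL1 differed by -0.08 (95% interval -0.24 to 0.09), and by -0.02 without shZNF395 3. ACSL4, the form that prefers arachidonic acid, differed by -0.13 (-0.26 to -0.004, limma adjusted p = 0.0747) although its groups did not overlap. ACSL3, found on lipid droplets, gave 0.10 on its brightest probe and -0.25 on another, neither past the threshold.

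**Figure D2:**
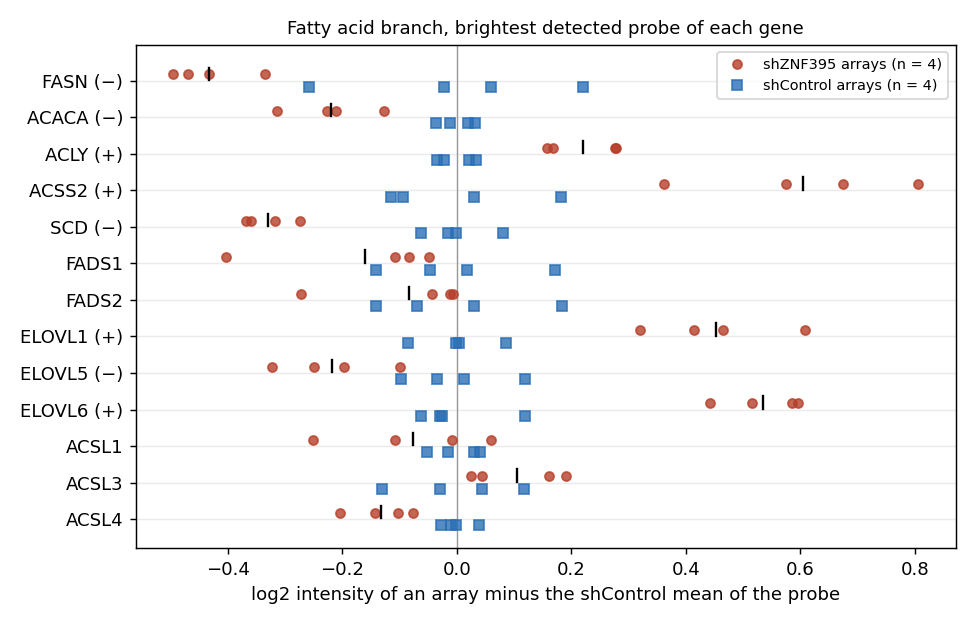
Log2 intensity on each array minus the shControl mean of the same probe, for the 13 genes of the fatty acid branch, with symbols as in the plot of the sterol branch. ACSS2 (0.60) and ELOVL6 (0.54) lie furthest to the right and FASN (-0.43) furthest to the left.

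Separate probes of a member mostly gave the same direction, which for some of them was partly built in by the pairing. In 12 genes with more than 1 tested probe, 10 of 13 other probes had the sign of the brightest probe and 8 its call, and in 0 cases did 2 probes of a gene pass in opposite directions. The exceptions in sign were the dimmest probe of MSMO1 and the other probes of DHCR7 and ACSL3. The pairing of probes with genes was recovered from the deposited values, and for 12 members at least 1 probe was identified as belonging to the only pair of unclaimed probes whose mean gave the deposited entry. Shifted values of those members' entries found between 0 and 0.37 such pairs by chance. Such pairs were chosen by the mean of their differences, so agreement in sign between their 2 probes is partly built in. The agreeing probes of FDFT1, SQLE, ACAT2, INSIG1 and ELOVL6 belong to such pairs. The share that agrees over all genes with several probes was not computed. Of the 23 called members, 7 rest on a probe of such a pair, namely FDFT1, LSS, MSMO1, ACAT2, INSIG1, ACSS2 and ELOVL6.

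**Figure D3:**
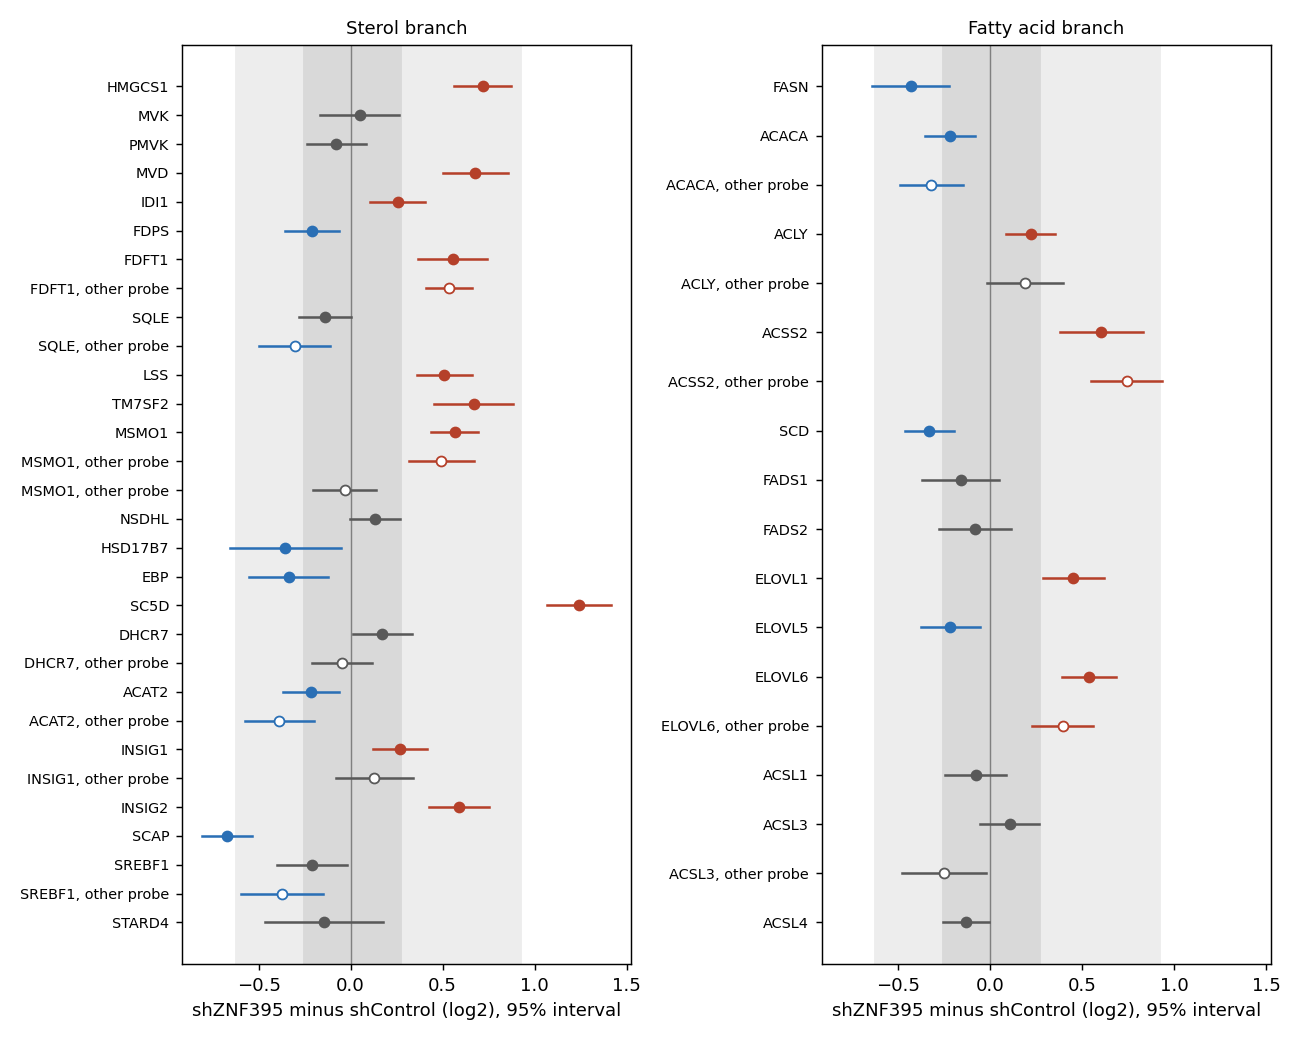
Difference of shZNF395 minus shControl with its 95% interval for the 48 tested probes of the members, with filled circles for the brightest probe of a gene and open circles for its other probes. The dark and light bands span the 25th to 75th percentile (-0.25 to 0.27) and the 5th to 95th percentile (-0.62 to 0.92) of all 10066 named genes, and most members lie within them.

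**Figure D4:**
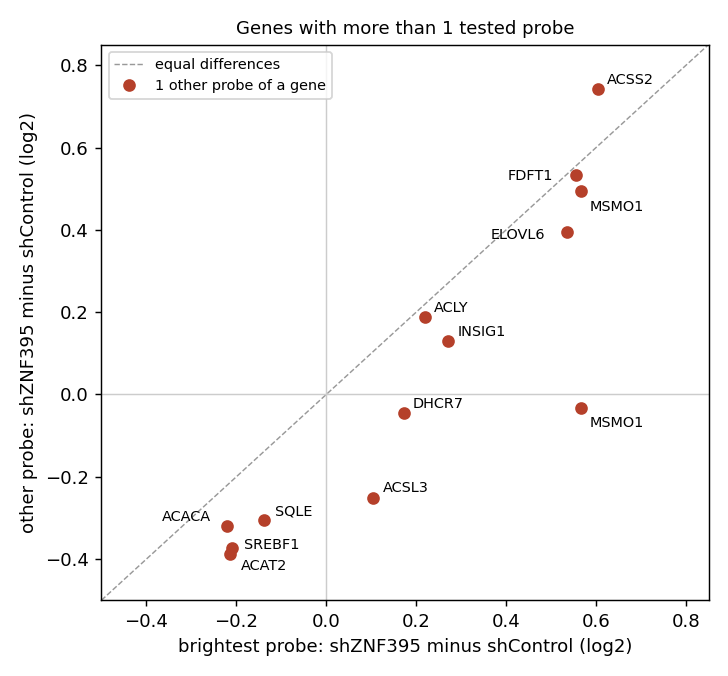
Differences of shZNF395 minus shControl on the log2 scale for the 13 other tested probes of 12 members, against the difference on the brightest probe of the same gene. Points near the dashed line gave equal values, and the points of MSMO1 (0.57 against -0.03), DHCR7 (0.17 against -0.05) and ACSL3 (0.10 against -0.25) lie on opposite sides of 0.

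A further list of genes of sterol synthesis, transport and control had 30 genes, of which 26 were tested. By the brightest probe 12 rose, 3 fell and 11 did not reach the threshold, where 29.8% of all named genes were higher and 28.2% lower. One of those that fell, TMEM97, had another probe that rose. The median difference was 0.17. The cholesterol exporter ABCA1 rose by 1.39 (SE 0.08, limma adjusted p = 2.42e-07) and the late endosomal cholesterol transporter NPC1 by 1.16 (SE 0.069, adjusted p = 3.09e-07). NR1H3, which encodes the oxysterol receptor LXR-alpha, rose by 0.58 (limma adjusted p = 4.77e-05), and NR1H2, which encodes LXR-beta, by 0.70 (adjusted p = 7.95e-05). GGPS1, which draws farnesyl diphosphate away to geranylgeranyl diphosphate, rose by 1.02 (SE 0.065, adjusted p = 4.67e-07). TMEM97, an endoplasmic reticulum sterol-binding protein gene, gave -1.05 on its brighter probe (adjusted p = 1.48e-06) and 0.53 on the other (adjusted p = 0.000108), so that no direction can be given for the gene.

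Of 36 further fatty acid genes 25 were tested, of which 10 rose, 2 fell and 13 did not reach the threshold, beside the 29.8% higher and 28.2% lower of all named genes. Their median difference was 0.10. ME1, the malic enzyme that supplies NADPH for chain building, rose by 0.67 (SE 0.075, limma adjusted p = 3.13e-05). ACSL5, a synthetase outside the list of members, rose by 0.40 on its brightest probe (adjusted p = 0.000563) and by 0.50 on another. CPT1A, which brings fatty acids into mitochondria for oxidation, rose by 0.35 (adjusted p = 0.000465). FADS3 rose by 0.46 (adjusted p = 0.000672) and AGPAT2, an acyltransferase of glycerolipid synthesis, by 0.37 (adjusted p = 0.00143). ACSS1, the mitochondrial acetyl-CoA synthetase, was detected on all shZNF395 arrays and on no shControl array. It passed the filter only through the group where it was high, and is counted among the 10 that rose. It was at least 1.31-fold higher in shZNF395. For this bound the dim group was set, per array, at the higher of its own value and the lowest detected signal.

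**Figure D5:**
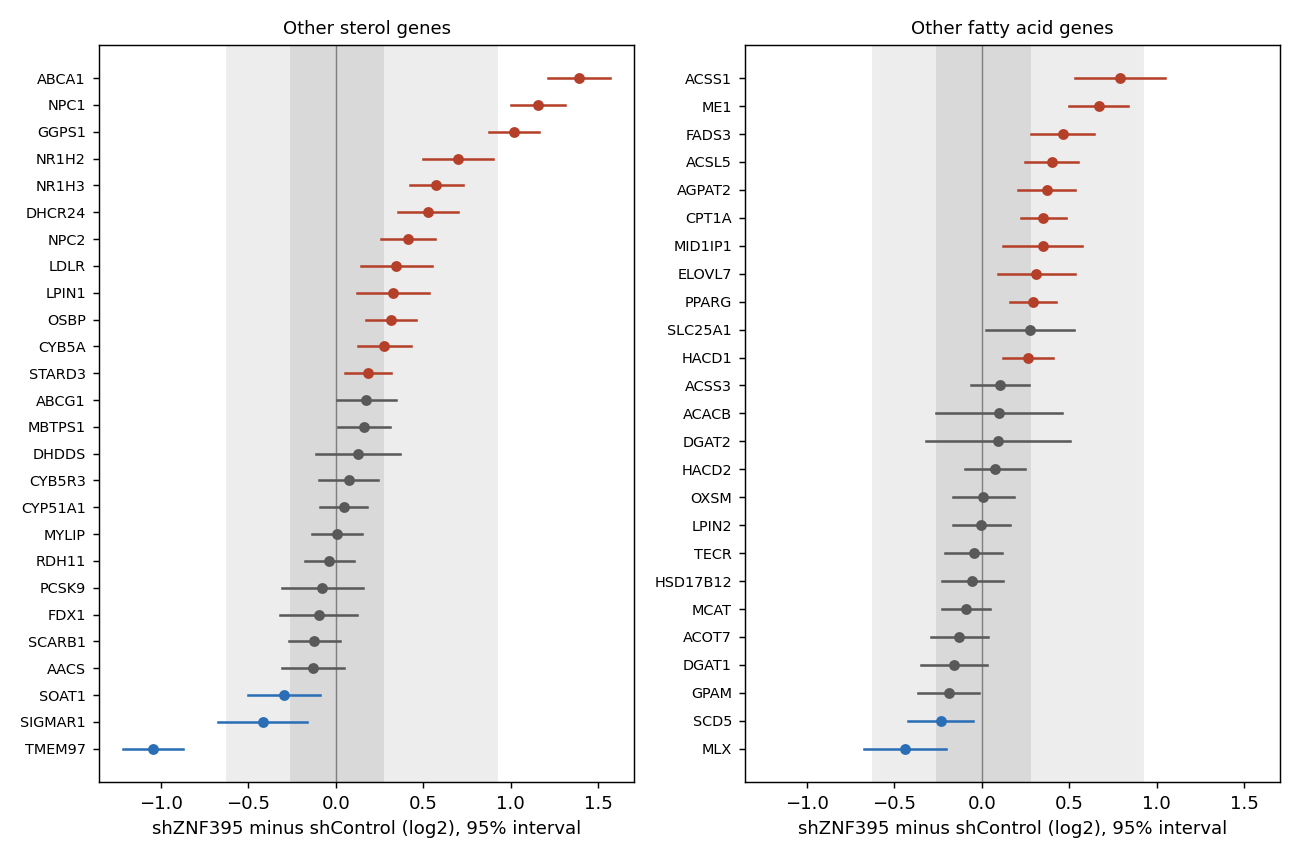
Difference of shZNF395 minus shControl with its 95% interval for 26 other sterol genes and 25 other fatty acid genes, by the brightest detected probe of each, over the same percentile bands of all named genes, with red for genes called higher, blue for lower and grey for neither (ACSS1 is drawn at its fitted value). ABCA1 (1.39), NPC1 (1.16) and GGPS1 (1.02) lie above the 95th percentile, and TMEM97 (-1.05) below the 5th.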

How the data were processed

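Intensity was measured on 8 Illumina BeadChips. Raw intensities and detection p-values came from the deposited table that was not normalized, 1 pair of columns per array, per the file headers. The deposited series matrix holds normalized intensities, for which the submitters' processing notes name lumi. The authors' deposited table gives a log fold change, called logFC per the file headers and near log2 at high signal, for each of 39747 transcript entries. Neither its base nor the array's genome build is given in the sources used here.

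Probes and entries were paired by value. An arcsinh curve through the series matrix values, fitted to the deposited fold changes with no pair presumed, gave each probe's difference of group means. Within 1e-09, 83.4% of entries were matched by 1 probe, against 0.0247% after a shift. Of the 6610 entries left, 6025 equalled the mean of some pair of unclaimed probes within 6e-10, against 1939 after a shift, and 5402 were resolved to 1 pair, so that these pairings are less certain. The markers VIM, AXL, CAV1, LEP and CIDEC and the pathway genes CPT1A, ACSL5 and TMEM97 were named in this way. Shifted values found 0.02 (TMEM97) to 0.44 (VIM) such pairs for them by chance, and 0.25 for LEP. Entries were named through RefSeq accessions of GRCh38.p14.

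Raw intensities were corrected with limma 3.58.1 (R 4.3.3) by normexp with detection p-values, offset 16, quantile-normalized and taken to log2. Probes were kept with detection p under 0.01 on at least 4 arrays. lmFit and eBayes gave shZNF395 minus shControl, two-sided, adjusted over all 17184 kept probes and called under 0.05. A gene was counted by its brightest kept probe. The fit was tested on simulated data. Members named with values per array were the called ones, up to 10 a branch by smallest p, and SREBF2, which was not tested. Other pathway genes named were up to 6 a branch by smallest p. A few genes of the sterol list are not reported here and are not counted. Members and lists were chosen with earlier results of these data known. Matching used numpy 2.4.6, pandas 2.3.3 and scipy 1.17.1 under Python 3.11.15. The 4 arrays per group limit the precision.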

Additional observations from a re-analysis of the deposited data

Results flagged for a closer look

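In 70 groups of 4 arrays (35 members, 2 groups each), 5 held 1 array far from the other 3, against about 1 in 20 by chance. On shControl 3, TM7SF2 read 6.28 where the remaining controls read 5.92 to 5.96, and HSD17B7 10.06 against 10.58 to 10.60. INSIG1 stood at 10.06 on shControl 2 against 10.19 to 10.21. FADS1 stood at 9.89 on shZNF395 3 against 10.18 to 10.24, and FADS2 at 5.07 on shZNF395 1 against 5.30 to 5.33, near the detection limit. Of the 23 called members, shZNF395 3 was the array of its group nearest to the other group's mean in 11 and the other shZNF395 arrays in 3 to 5. Among the controls shControl 3 was nearest in 8, shControl 1 in 7 and the others in 4 each. The cause was not tested.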

How the results depend on the processing

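Of the 23 called members, 19 kept their call and direction at adjusted p under 0.05 in every alternative fit that tested them. These fits varied background correction, normalization, filter, probe rule, moderation and weighting, or left out any 1 array. The 19 were all 14 that were higher, and SCAP, EBP, FASN, ACACA and SCD among the lower. HSD17B7 (also under 3 looser filters on dim probes, adjusted p from 0.0552 to 0.125), FDPS, ACAT2 and ELOVL5 lost their call in some fits. No member reversed past the threshold. Stricter thresholds kept fewer: EBP (limma adjusted p = 0.0126) and ACACA (0.0103) were not called under 0.01, and 7 of the 23 reached 1.5-fold. At adjusted p under 0.01 there were 1 lower sterol gene, 2 lower fatty acid genes and 1 lower other fatty acid gene. With at least 1.5-fold, 5 sterol genes were higher and 1 lower, 1 fatty acid gene was higher and 0 lower (4 lower at adjusted p under 0.05 alone), 4 other sterol genes were higher and 1 lower, 2 other fatty acid genes were higher and 0 lower, and 1573 of all probes were higher and 1152 lower. With the replicate number as a block, 3 sterol genes and 1 other fatty acid gene were lower, and FDPS (limma adjusted p = 0.0516), ACAT2 (0.0571) and ELOVL5 (0.0775) were not called. Of all probes 3958 were then higher and 4582 lower. The samples share only a number (correlations of deviations -0.107, 0.005, -0.422 and -0.087). With 1 array left out, 3 to 4 sterol genes were lower (3 without shControl 1, shControl 3 or shZNF395 4), and 1 to 2 other fatty acid genes (1 without shControl 4, shZNF395 1 or shZNF395 4). Of all probes 3992 to 4443 were higher and 4578 to 5235 lower. The mean of a gene's probes gave 4 other fatty acid genes lower, and no detection filter 1. Chosen after seeing the data, reading only probes with an entry of their own gave 2 fatty acid genes higher, 1 other sterol gene and 1 other fatty acid gene lower, with fewer genes tested. Without both arrays numbered 3, likewise chosen after seeing the data, 12 sterol genes were higher and 4 lower. Of all probes 4560 were then higher and 5432 lower, against 4356 and 5156 with every array. SQLE, SREBF1, DHCR7, ACSL4 and MVK passed under some alternatives. SREBF1 did so where its dim probe was read, and without shControl 1 (limma adjusted p = 0.0412). Dim probes (SREBF2, STARD4, FADS2 and 1 tested SREBF1 probe) lie near background, which limits what they can show.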
